A study of Mus musculus with 8 samples.

Results

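The glucocorticoid response and receptor genes were examined in whole-liver RNA of 8 female C57BL/6 mice. Of these, 4 carried ΔF508, the common cystic fibrosis (CF) mutation of the chloride channel Cftr, and 4 were wild-type (WT) littermates. Both genotypes were labelled 3 weeks old. The animals of both groups went onto enriched 9F chow at weaning (day 21) and had dilute Colyte, an osmotic laxative, as their only drink until they were killed at day 23. Each liver was read on its own single-colour mouse bead array, and the labels do not say how many litters the animals came from. The genes were chosen by name. They are the 8 genes Nr3c1, Hsd11b1, Fkbp5, Tsc22d3, Sgk1, Dusp1, Zbtb16 and Serpina6. Zbtb16 was not analysed here. The other 7, of 16593 genes with a probe on the array, had 11 probes, and each gene is given by its probe of highest mean over the 8 arrays. Of these 7 genes, 6 were above background, a log2 level of 6.47 that a probe had to exceed on at least 4 arrays, as 9146 genes did. Levels are log2 fluorescence values that the authors had quantile-normalized, a difference subtracts WT from CF and carries its standard error (SE), and p-values are from limma with Benjamini-Hochberg adjustment over all 12923 tested probes. A level of one probe cannot be set against that of another. The number of arrays limits the precision, and in whole liver fewer cells of a type and less RNA per cell cannot be told apart.

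Glucocorticoids are adrenal steroids, corticosterone in mice, that travel in blood largely bound to a carrier protein made by the liver, corticosteroid-binding globulin. Inside the cell the steroid can be regenerated from its inactive keto form and binds the glucocorticoid receptor, which waits in the cytoplasm in a complex with heat shock protein chaperones and then moves to the nucleus. There it binds DNA and raises genes that limit its own signal, restrain inflammation and drive hepatic glucose production. In liver it is known for its part in fasting metabolism and postnatal maturation.

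The CF livers had higher Fkbp5 and Sgk1, both induced by the receptor, and lower Serpina6, which encodes corticosteroid-binding globulin. Fkbp5 was 2.54-fold higher, Sgk1 1.84-fold higher and Serpina6 2.02-fold lower. Hsd11b1, Tsc22d3 and Dusp1 did not pass the test, and the probe of the receptor gene Nr3c1 was not above background. Thus 3 of the 6 tested genes changed, 2 higher and 1 lower, where 19.1% of all tested probes and 19.8% of all genes above background changed, 11.0% higher and 8.79% lower. The same 3 genes were those whose CF and WT arrays did not overlap, against 24.4% of all genes. The median difference of the 6 genes was 0.16, and that of all genes was 0.02.

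**Figure D1:**
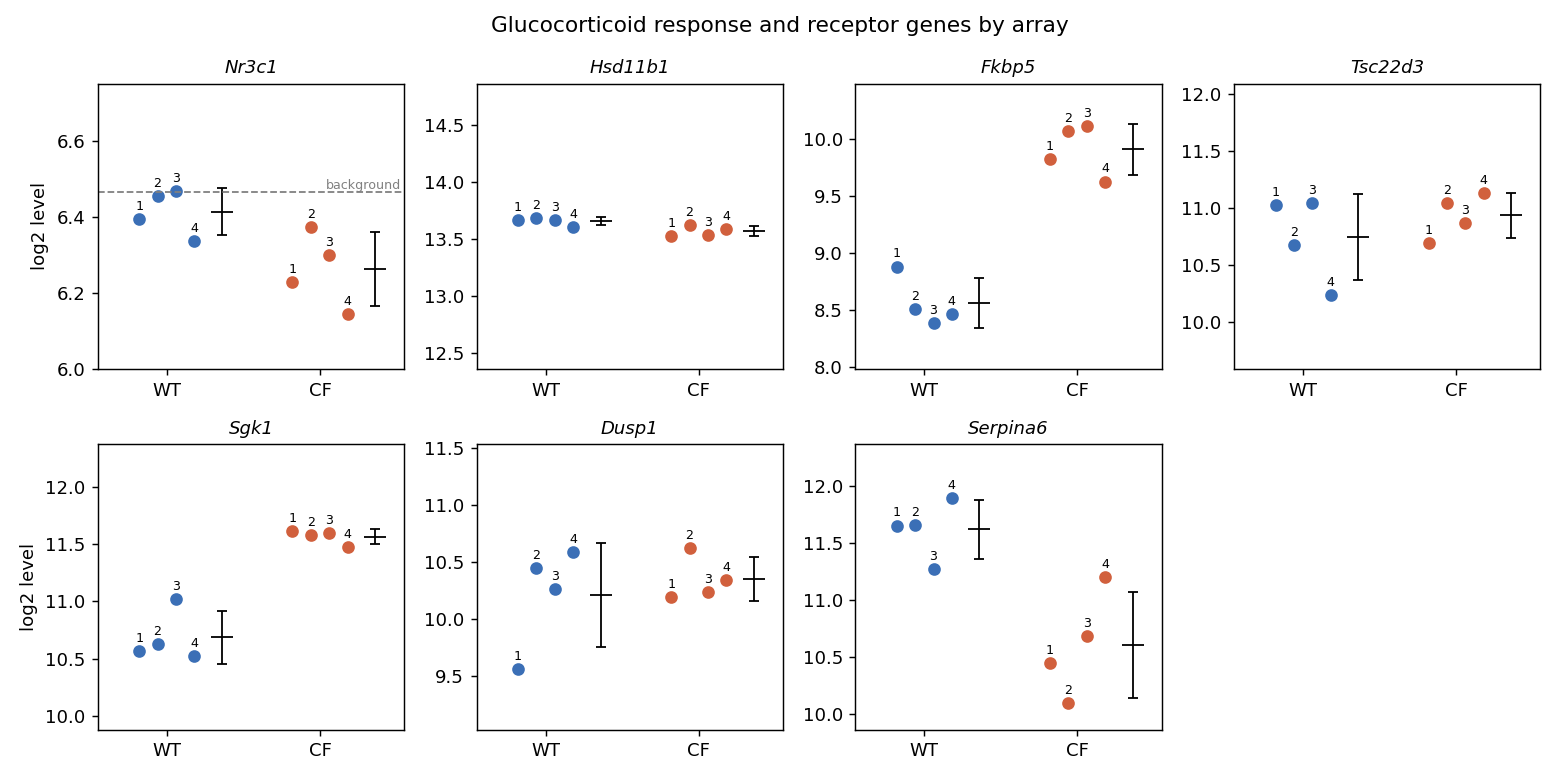
Log2 level of the 7 genes with a probe, for the 4 WT arrays (blue) and the 4 CF arrays (orange), numbered by replicate, with the mean and SD of each genotype beside them in black. The panels of tested genes span the same height of 2.5 log2 units, and that of Nr3c1 is enlarged with the background level of 6.47 dashed. CF and WT separate for Fkbp5, Sgk1 and Serpina6.

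The regulatory sequence before the starts of Sgk1 and Fkbp5 is shown because these were the genes that rose. Windows of 250 bases before each annotated start were read from RefSeq (build GRCm38.p6), which held 12 windows for 5 of the 8 genes. Each window was searched on both strands for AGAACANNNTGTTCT, the palindrome that the receptor is known to bind as a dimer, and for its arm AGAACA, read as TGTTCT on the other strand. Every palindrome also holds the arm on each strand. The Sgk1 window is chr10:21993640-21993889 on the plus strand, and that of Fkbp5 is chr17:28486150-28486399 on the minus strand. Of the 6 Sgk1 windows, that shown is the only 1 with the palindrome, so it does not stand for the others. Capitals mark the arms and the palindrome.
Sgk1: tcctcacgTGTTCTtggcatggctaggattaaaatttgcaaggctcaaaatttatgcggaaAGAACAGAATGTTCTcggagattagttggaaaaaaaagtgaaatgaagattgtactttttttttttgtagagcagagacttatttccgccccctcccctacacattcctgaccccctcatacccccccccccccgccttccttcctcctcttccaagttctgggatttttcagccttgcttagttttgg
Fkbp5: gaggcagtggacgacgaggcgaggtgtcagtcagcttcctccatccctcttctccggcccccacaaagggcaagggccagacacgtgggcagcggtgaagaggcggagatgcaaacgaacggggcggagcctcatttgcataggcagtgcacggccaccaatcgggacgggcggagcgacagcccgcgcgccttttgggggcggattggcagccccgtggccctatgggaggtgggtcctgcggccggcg
The palindrome was found in 1 of the 6 Sgk1 windows, at chr10:21993701-21993715. Its first base lies 189 bases before the start of that window's transcript and 965 bases before the most downstream annotated start of the gene. Of all 32851 windows of this length, 3 held the palindrome, or 0.00913%, and the other two belonged to Acnat2 and Gm35041. The arm was in 16.1% of all windows, in 3 of the 6 Sgk1 windows, and in 1 of the 3 Tsc22d3 windows. Of 30 windows of other glucocorticoid-induced liver genes, 0 held the palindrome and 2 the arm, or 6.67%, under the share of all windows. The windows of Fkbp5, Hsd11b1 and Dusp1 had no match. Only exact matches within these windows were sought, so a missing match does not show that a gene lacks a site. A match is a description of these letters and not a site of binding, and the probe does not tell which Sgk1 start was used.

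Among the genes around the receptor itself, Nr3c1 gives no usable level. Its single probe read 6.39, 6.46, 6.47 and 6.34 in WT 1 to WT 4 and 6.23, 6.37, 6.30 and 6.14 in CF 1 to CF 4, with 1 of the 8 arrays above background. No fold is given for it.

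Fkbp5 encodes FKBP51, a co-chaperone that lowers the affinity of the receptor for its steroid and is itself a receptor target. It was at 8.88, 8.51, 8.39 and 8.47 in WT 1 to WT 4, and at 9.82, 10.07, 10.11 and 9.63 in CF 1 to CF 4. The lowest CF array lay above the highest WT array. Its level was 9.91 ± 0.23 in CF and 8.56 ± 0.22 in WT (SD, n = 4 each), a difference of 1.35 ± 0.14 SE (95% confidence interval 1.04 to 1.65, adjusted p = 0.000377). This was the rise ranked 29 by size among the 1008 genes that rose. As each array was left out in turn, the difference was 1.28 to 1.45 with adjusted p of at most 0.00204.

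Sgk1 encodes a serine/threonine kinase that regulates ion channels and is induced by glucocorticoids and mineralocorticoids. It was at 10.57, 10.63, 11.02 and 10.52 in WT 1 to WT 4, and at 11.61, 11.59, 11.60 and 11.47 in CF 1 to CF 4. The CF arrays lay within a narrow band above all WT arrays, and WT 3 was the WT array closest to them. The mean was 11.57 ± 0.06 in CF and 10.69 ± 0.23 in WT (SD, n = 4 each), a difference of 0.88 ± 0.11 SE (95% confidence interval 0.64 to 1.13, adjusted p = 0.000911). The rise ranked 89 of 1008. Leaving out single arrays gave 0.83 to 0.996, with adjusted p of at most 0.00402.

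Tsc22d3, also called GILZ, encodes a leucine zipper protein through which glucocorticoids restrain inflammatory signalling. Its brighter probe was at 11.02, 10.68, 11.04 and 10.24 in WT 1 to WT 4 and at 10.70, 11.05, 10.87 and 11.14 in CF 1 to CF 4. The genotypes overlapped, and the WT arrays spread more widely than the CF arrays. The difference was 0.19 ± 0.18 SE (95% confidence interval -0.21 to 0.59, adjusted p = 0.498). The dimmer probe, annotated to another transcript of the gene, differed by -0.01 ± 0.10 SE (adjusted p = 0.962).

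Dusp1 encodes a phosphatase that switches off MAP kinases and is induced by glucocorticoids as well as by growth factors and stress. It was at 9.56, 10.44, 10.26 and 10.59 in WT 1 to WT 4, and at 10.20, 10.62, 10.23 and 10.34 in CF 1 to CF 4. WT 1 was the lowest of the 8 arrays and the others overlapped. The difference was 0.14 ± 0.20 SE (95% confidence interval -0.32 to 0.59, adjusted p = 0.696), and without WT 1 it was -0.08. For Tsc22d3 and Dusp1 the intervals include both no change and a rise of 0.59.

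Hsd11b1 encodes the dehydrogenase that regenerates corticosterone from its inactive keto form. Its brightest probe was at 13.66, 13.68, 13.66 and 13.61 in WT 1 to WT 4 and at 13.52, 13.62, 13.53 and 13.59 in CF 1 to CF 4. CF 1, CF 3 and CF 4 lay below all WT arrays and CF 2 lay among them. The difference was -0.09 ± 0.06 SE (95% confidence interval -0.22 to 0.04, adjusted p = 0.319). The other two bright probes of the gene had differences of -0.14 ± 0.08 SE and -0.07 ± 0.07 SE and did not pass either, and the fourth probe was not above background.

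Serpina6, the corticosteroid-binding globulin gene, was at 11.65, 11.66, 11.27 and 11.90 in WT 1 to WT 4 and at 10.45, 10.09, 10.68 and 11.20 in CF 1 to CF 4. The groups did not overlap, but CF 4 and WT 3 were close. The mean was 10.61 ± 0.46 in CF and 11.62 ± 0.26 in WT (SD, n = 4 each), a difference of -1.01 ± 0.22 SE (95% confidence interval -1.50 to -0.53, adjusted p = 0.0120). It ranked 89 by size among the 804 genes that fell. Leaving out single arrays gave -1.21 to -0.84, with adjusted p of at most 0.0332.

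**Figure D2:**
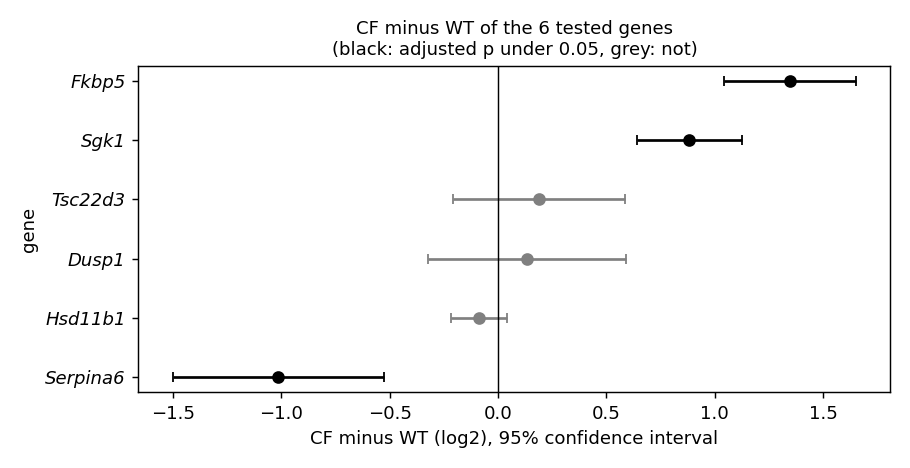
CF minus WT on the log2 scale with 95% confidence intervals from limma for the 6 tested genes, n = 4 arrays per genotype. The intervals of Fkbp5 (1.04 to 1.65), Sgk1 (0.64 to 1.13) and Serpina6 (-1.50 to -0.53) lie off 0, and those of Tsc22d3, Dusp1 and Hsd11b1 include it.

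**Figure D3:**
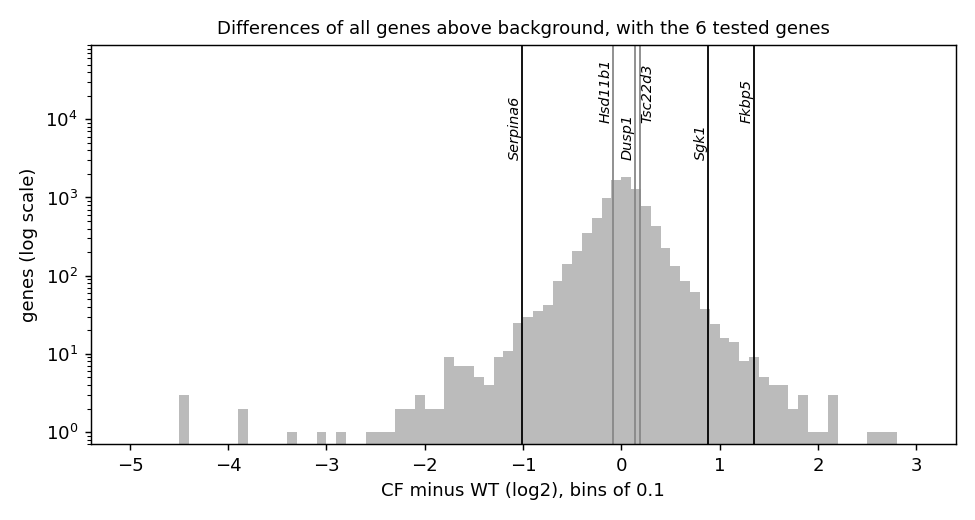
Histogram of CF minus WT (log2, bins of 0.1) over the 9146 genes above background, with a log axis for the number of genes. Vertical lines mark the 6 tested genes, black where the adjusted p was under 0.05. Fkbp5 at 1.35, Sgk1 at 0.88 and Serpina6 at -1.01 stand in the tails, and the other 3 in the centre.

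Transcripts of other tissues and cells varied between the arrays. Of 7 hepatocyte markers 5 had a probe and all 5 were above background. Ttr read 14.32 to 14.44, Apoa1 14.20 to 14.47 and Alb 7.80 to 8.13 over the arrays, and 0 of the 5 passed the test between genotypes. The highest value of any probe was 14.66, so Ttr and Apoa1 had little room to rise. Cyp11b1 and Cyp21a1, steroid hydroxylases of the adrenal cortex, were above background in WT 1, WT 2, WT 4 and CF 3. Cyp11b1 read 8.21, 7.60, 7.51 and 7.99 there, and 5.85 to 5.92 in WT 3, CF 1, CF 2 and CF 4, all under background. Cyp21a1 followed the same split, at 7.04 to 7.45 against 6.04 to 6.14. Of the 7 genes listed as adrenal cortex markers 4 were above background and 0 passed. The log2 of their summed linear levels was 11.04 to 11.98 in CF and 11.15 to 11.53 in WT. Cyp17a1, at 10.85 to 11.89, made up most of that sum and did not follow the split. The sum therefore does not compare the Cyp11b1 and Cyp21a1 signal of the genotypes. Cyp11a1, Star and Mc2r did not pass the filter.

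For Fkbp5, Sgk1 and Serpina6 CF and WT arrays did not overlap, so their direction had to agree on both sides of that adrenal split. CF 3 was the only CF array with Cyp11b1 above background, and WT 3 the only WT array without. The part of adrenal tissue in these changes was not tested, and the values by side are a description. Among the arrays with Cyp11b1 above background, Fkbp5 was at 10.11 in CF 3 and 8.47 to 8.88 in the WT arrays. Among the other 4 arrays it was at 9.63 to 10.07 in CF and 8.39 in WT 3. Sgk1 was at 11.60 against 10.52 to 10.63 in the first set, and at 11.47 to 11.61 against 11.02 in the second. Serpina6 was at 10.68 against 11.65 to 11.90, and at 10.09 to 11.20 against 11.27. With the mean log2 level of Cyp11b1, Cyp21a1, Cyp11a1 and Star on each array as a covariate (6.03 to 7.36), chosen after seeing the data, the differences were 1.47 ± 0.12 SE for Fkbp5, 0.81 ± 0.11 SE for Sgk1 and -0.92 ± 0.24 SE for Serpina6, and all 3 passed (adjusted p = 0.000307, 0.00317 and 0.0367). With the 4 Cyp11b1-positive arrays left out, also an alternative added after seeing the data, WT 3 stood alone against 3 CF arrays. The differences were then 1.45 for Fkbp5, 0.53 for Sgk1 and -0.69 for Serpina6, all short of the threshold. That fit measures no spread within WT.

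The neutrophil transcripts S100a8 and S100a9 moved with genotype. S100a8 was at 8.30 to 8.79 in WT and 9.48 to 10.50 in CF, 2.80-fold higher, and S100a9 at 7.21 to 7.92 and 8.72 to 9.27, 2.60-fold higher. Of the 8 lymphocyte and neutrophil markers, 6 were above background and 2 rose, or 33.3% where 19.8% of all genes were called. Ngp, a neutrophil granule gene, differed by 0.38 ± 0.14 SE with overlapping groups and did not pass (adjusted p = 0.0948). Cd3e, Cd3g and Cd79a did not pass either. The log2 of the summed linear levels of the 6 was 9.68 to 10.08 in WT and 10.56 to 11.31 in CF. S100a8 and S100a9 made up most of that sum, so it does not show a rise across the list. Ptprc and Ms4a1, which mark leukocytes and B cells, were not above background. Lyve1, a marker of sinusoidal endothelium, rose by 1.35 ± 0.12 SE, while the other 4 endothelial markers tested did not pass, and the list had summed levels of 12.51 to 12.74 in WT and 12.61 to 12.72 in CF. Marco, a macrophage receptor, was higher by 1.08 ± 0.30 SE, and the other 3 macrophage markers tested did not pass, with sums of 11.70 to 12.09 in WT and 11.74 to 12.26 in CF. The part of these cells in the rises of Fkbp5 and Sgk1 was not tested. Of 6 stellate cell markers Dcn rose and Lrat fell, or 33.3% where 19.8% of all genes were called. Dcn had 2 tested probes, of which 1 passed. Adipoq fell, and of 5 listed adipose tissue markers it was the only 1 above background. Of the cholangiocyte markers 0 of 3 passed, of the erythroid 0 of 2 and of the pancreatic 0 of 8. Exocrine pancreas transcripts were highest in WT 3 and CF 1. Without both arrays Fkbp5 differed by 1.32, Sgk1 by 0.98 and Serpina6 by -1.08, all 3 past the threshold.

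**Figure D4:**
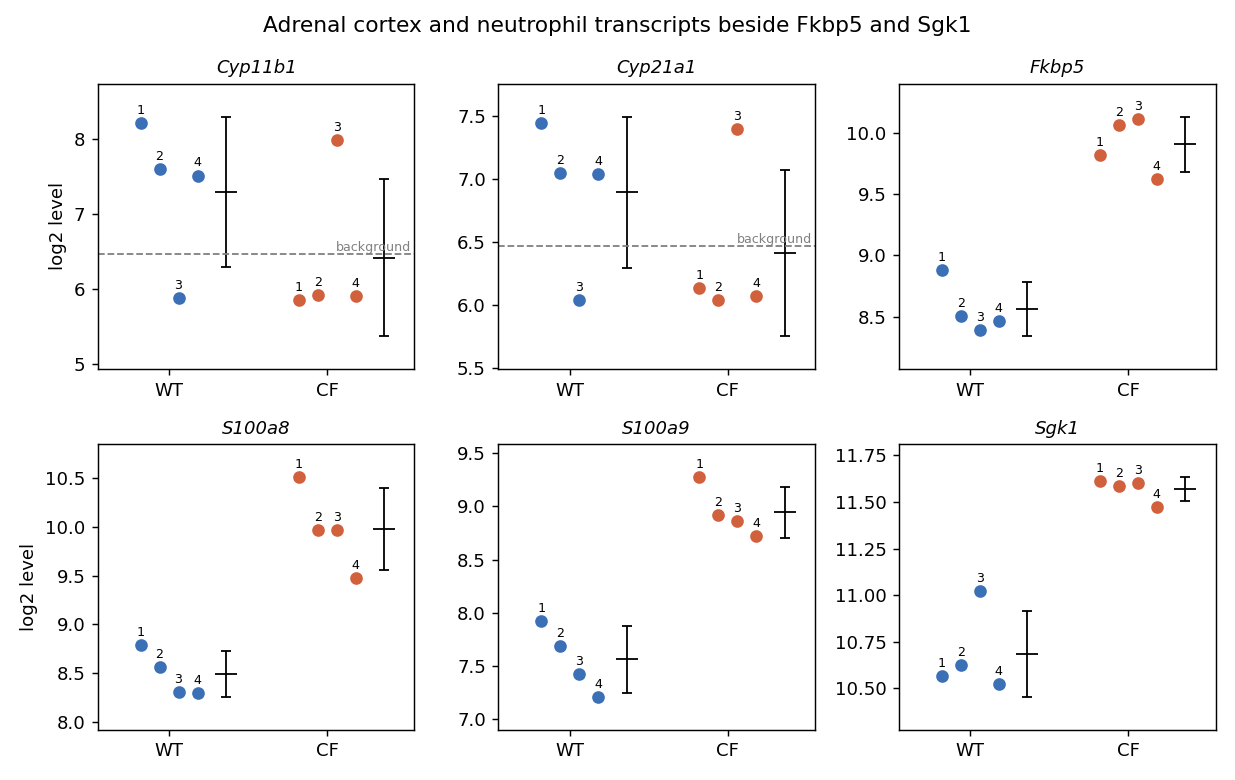
Log2 levels of the adrenal cortex transcripts Cyp11b1 and Cyp21a1 and the neutrophil transcripts S100a8 and S100a9 beside Fkbp5 and Sgk1, for the 4 WT (blue) and 4 CF (orange) arrays numbered by replicate, with mean and SD in black and each panel on its own scale. The adrenal transcripts are above the dashed background of 6.47 in WT 1, WT 2, WT 4 and CF 3, whereas S100a8 and S100a9 separate the genotypes.

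Other genes known to be raised by glucocorticoids in liver were followed in a list of 28, of which 26 were above background. This list and those that follow were chosen with earlier results of these data known, so their shares are descriptions and not tests. In CF 9 of the 26 genes rose and 0 fell, 34.6% of those tested, where 11.0% of all genes rose and 8.79% fell. The count includes Sult1e1, which was above background in CF arrays only, and Gadd45b, which was above background on 7 arrays. With probes above background on all 8 arrays both, and also Tat, left the test, and 7 genes of the list rose. The median difference was 0.43 against 0.02 over all genes, and 22 of the 26 differences were above 0. Per1, a clock gene that the receptor induces directly, was at 8.09, 7.78, 7.92 and 7.73 in WT 1 to WT 4 and at 9.74, 9.36, 9.44 and 9.41 in CF 1 to CF 4, without overlap. It was 3.04-fold higher (difference 1.60 ± 0.11 SE, adjusted p = 5.11e-05), and its second probe rose by 1.26. Cebpb, a leucine zipper factor that drives hepatic gluconeogenic genes, rose by 0.67 ± 0.09 SE. Gadd45b, a stress-induced growth regulator, rose by 0.86 ± 0.14 SE. Sult1e1, the estrogen sulfotransferase, was at 7.36 ± 0.43 in CF (SD, n = 4) and under background on all 4 WT arrays, at least 1.85-fold higher in CF. It entered the test only through its CF arrays, so its call is no support.

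The remaining 5 risers of that list, named after their values were seen, were Cdkn1a, a cell cycle inhibitor (1.13 ± 0.20 SE), Ddit4, an mTOR inhibitor (1.10 ± 0.19 SE), Igfbp1, which binds insulin-like growth factors (1.87 ± 0.47 SE), Angptl4, a lipoprotein lipase inhibitor (0.53 ± 0.16 SE), and Errfi1, an EGF receptor inhibitor (0.25 ± 0.07 SE). Several classical targets, also named after their values were seen, did not pass. Tat, the tyrosine aminotransferase long used as a readout of the hormone, differed by 0.24 ± 0.12 SE and its probe was dim, at 6.01 to 6.70. Pck1 and G6pc, the enzymes of glucose production, differed by 0.50 ± 0.23 SE and 0.69 ± 0.33 SE. Klf9, a transcription factor induced by the receptor, differed by -0.13 ± 0.11 SE (95% confidence interval -0.38 to 0.12), and Mt1, a metallothionein, by -0.09 ± 0.09 SE. The Mt1 probe read 14.26 to 14.66, where 14.66 was the highest value of any probe, so it had little room to rise. Leaving out single arrays gave 6 to 10 risers in the list, and leaving out WT 2 gave 1 faller. Without the 4 Cyp11b1-positive arrays a single WT array remained. That fit passed no gene of this list or of the lists that follow, and it measures no spread within WT.

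**Figure D5:**
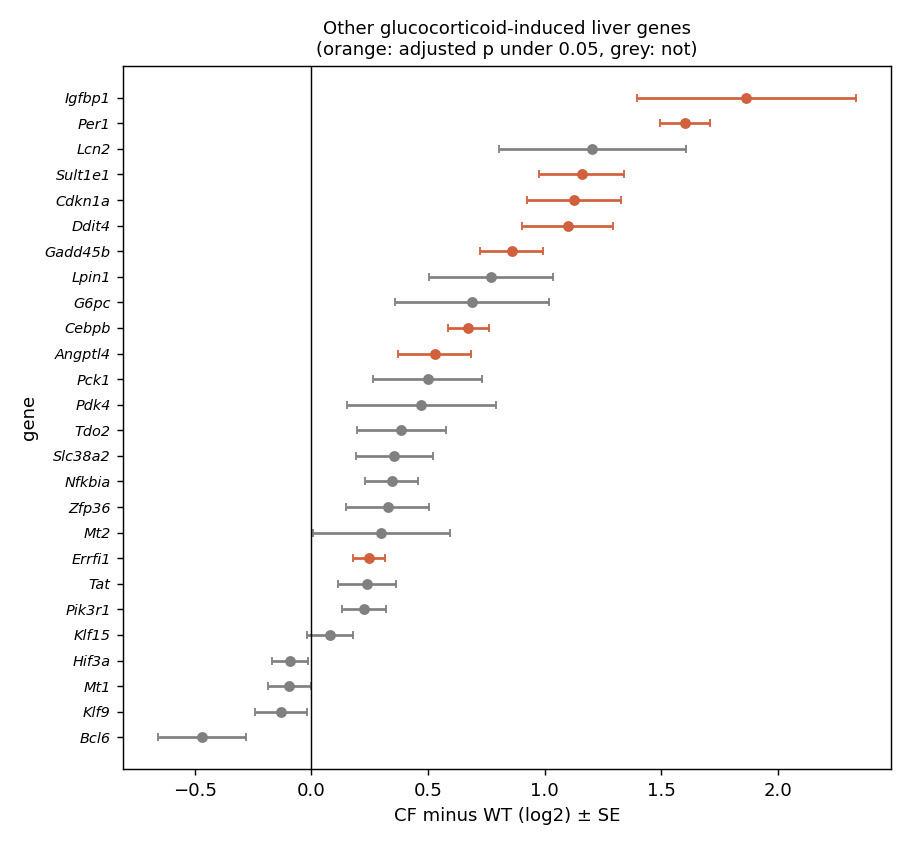
CF minus WT (log2) ± SE for the 26 tested genes of the list of other glucocorticoid-induced liver genes, sorted by size, n = 4 arrays per genotype. The 9 genes in orange had an adjusted p under 0.05, all above 0, and the 17 in grey did not, among them Tat, Pck1, G6pc and Klf9.

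In the chaperones and coregulators of the receptor 3 of 14 tested genes fell and 0 rose, 21.4% of them, near the 19.8% of all genes. All 3 fallers encode Hsp90 co-chaperones of steroid receptor complexes. Fkbp4, whose product FKBP52 is the relative of FKBP51 that favours receptor activity, was at 11.55, 11.47, 11.48 and 11.54 in WT 1 to WT 4 and at 10.67, 10.82, 10.59 and 11.10 in CF 1 to CF 4. No CF array reached the WT arrays, and the fall was 1.65-fold (difference -0.72 ± 0.11 SE, adjusted p = 0.00210), opposite in sign to the rise of Fkbp5. Stip1, which links Hsp70 to Hsp90, had a difference of -0.59 ± 0.08 SE, and Ppid, a cyclophilin of the same complexes, -0.69 ± 0.10 SE. Ptges3, the p23 co-chaperone, differed by -0.01 ± 0.10 SE and Hsp90aa1 by -0.27 ± 0.14 SE, neither passing. Both were named after their values were seen.

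Of 10 tested genes of glucocorticoid activation, clearance and binding, 1 rose and 1 fell, or 20%, near the 19.8% of all genes. They were Cyp3a13 (0.91 ± 0.09 SE) and Cyp3a11 (-0.57 ± 0.14 SE), cytochromes of a family that hydroxylates steroids, and the second lost its call without WT 3, WT 4, CF 2 or CF 3. H6pd, which supplies reducing power to the Hsd11b1 enzyme, was named after its value was seen and differed by -0.12 ± 0.12 SE (adjusted p = 0.523). Hsd11b2, the dehydrogenase that inactivates corticosterone, was not above background.

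Among 15 inflammatory genes that glucocorticoids repress, 7 were above background, and 2 rose while 0 fell. These 2 of 7 are 28.6%, where 19.8% of all genes were called and 11.0% rose. Icam1 and Vcam1, adhesion molecules for leukocytes, rose by 0.63 ± 0.15 SE and 0.82 ± 0.19 SE. Both calls were lost without WT 3, where 0 genes of this list passed limma with adjustment and 3 had an unadjusted p under 0.05. With all arrays, 4216 of the 12923 tested probes had an unadjusted limma p under 0.05. Ccl2, Cxcl2, Tnf, Il6, Nos2, Ptgs2 and Sele were not above background.

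The relatives of the named genes, 30 of 44 above background, gave 1 riser and 3 fallers, or 13.3%, under the 19.8% of all genes. Serpina3n, an acute phase protease inhibitor of the same serpin clade as Serpina6, rose by 0.99 ± 0.11 SE, while Serpina12, a serpin also known as vaspin, fell by 1.03 on the log2 scale (SE 0.10). Dusp6, a phosphatase specific for ERK, had a difference of -0.51 ± 0.15 SE, and Fkbp4 is the third faller. The kinases Sgk2 and Sgk3 differed by -0.47 ± 0.18 SE and 0.18 ± 0.13 SE and did not pass, nor did Tsc22d1 with -0.30 ± 0.11 SE. These 3 were named after their values were seen.

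The genes whose pattern over the 8 arrays was most like that of Fkbp5, by Pearson's r among 8986 named genes, were Sat2 (r = 0.996) and Adam23 (r = 0.993), both higher in CF. For Sgk1 they were Prpf39 (r = 0.983) and Anks1 (r = 0.977), also higher, and for Serpina6 Ndufab1 (r = 0.968) and Arsb (r = 0.956), both lower. For Hsd11b1 they were Upk3b (r = 0.987) and Mterf4 (r = 0.982), for Tsc22d3 Serpina5 (r = 0.967) and Golga1 (r = 0.931), and for Dusp1 Hpcal4 (r = 0.963) and Ccdc59 (r = 0.958). These values describe 8 arrays that share the genotype split, and the highest of so many genes is high by selection.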

How the data were processed

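The 25697 probes on 8 arrays, 4 CF and 4 WT, carry the authors' deposited log2 values, and arrays were grouped by the sample titles. The submitters' processing notes name GenomeStudio without a version. Background correction and the exact transform are not given in the sources used here. The sorted values of the arrays agreed within 0.000351, so quantile normalization by the authors preceded deposit, which removes any difference in total signal. The scanner table, with 32 columns named by chip position, was not used because no label gives a sample's position.

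The background level was set 1.64 spreads (0.173 each, from values under the mode) over the mode of 6.18. Probes that exceeded it in 4 or more arrays entered the test with limma 3.58.1 in R 4.3.3 (lmFit, eBayes, two-sided, genotype only) at an adjusted p of 0.05. List genes were given by their brightest tested probe. On simulated data for this comparison, over 12923 probes, limma recovered 60% of probes changed by 0.5 (log2) and 95.5% of those changed by 1, with 6 and 8 false calls. Each simulation changed 200 probes under independent noise, where 2474 were called in the data, so these figures need not hold for the data. Named list genes are up to 4 per direction past the threshold by adjusted p, unless said otherwise, and the 2 genes of highest Pearson r with each tested gene. The Cftr probe was not above background (6.06 ± 0.12 in CF, 6.11 ± 0.03 in WT, SD, n = 4 each) and does not check the genotype. The genes, lists and alternatives were chosen with earlier results of these data known. No label says that the replicates were separate extractions, so p-values measure the spread between these samples. Promoter sequences are from RefSeq, GRCm38.p6.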

Additional observations from a re-analysis of the deposited data

Results flagged for a closer look

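In groups of 4 arrays a value was looked at again where its gap to the nearest other array exceeded Dixon's 95% critical share of the group's range. The 56 genes of the pathway and marker lists that the text names and whose array values were tabulated gave 112 groups. Of these 8 met it, and chance gives about 1 in 20. In CF 3, 3 adrenal cortex transcripts stood above the other CF arrays. Cyp11b1 was at 7.99 against 5.85 to 5.92, Cyp21a1 at 7.40 against 6.04 to 6.14, and Cyp11a1 at 6.79 against 6.16 to 6.22. Serpina3n was at 13.61 in CF 4 and at 14.05 to 14.09 in the other CF arrays, all above the WT arrays. Dusp6 was at 10.72 in WT 4 and at 10.39 to 10.44 in the other WT arrays, and Ngp at 6.72 in WT 2 and at 6.53 to 6.56 in the others. Under background, Mc2r was at 5.99 in WT 3 against 6.20 to 6.21, and Cftr at 5.89 in CF 1 against 6.10 to 6.13. None of the values of Fkbp5, Sgk1, Serpina6, Tsc22d3, Dusp1, Hsd11b1 or Nr3c1 met it.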

How the results depend on the processing

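The results for the 6 tested genes kept their direction and their side of the threshold under the following alternatives, with 2 exceptions. Serpina6 missed a threshold of 0.01, where 2 of the 6 genes were called, and the Dusp1 difference, not past the threshold in any of them, became -0.083 without WT 1. The alternatives were other filters on dim probes, array weights, robust variance, cyclic loess, centring, averaged probes, thresholds of 0.01 and 0.1, the replicate number as a block and each array left out. As single arrays were left out, 3 of the 6 genes were called each time, and Fkbp5 ranged from 1.28 to 1.45, Sgk1 from 0.83 to 0.996, Serpina6 from -1.21 to -0.84, Tsc22d3 from 0.02 to 0.29, Dusp1 from -0.083 to 0.26 and Hsd11b1 from -0.11 to -0.08. Called list genes ranged from 6 to 10 for induced genes, 3 to 3 for chaperones, 1 to 3 for activation and clearance, 0 to 3 for repressed genes and 3 to 5 for relatives, and called probes from 1612 (without WT 3) to 2090.

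With WT 3 and CF 1 both left out, 1060 probes and 0 repressed genes (3 at an unadjusted p under 0.05) were called by limma. A threshold of 0.01 called 992 probes, 1 gene of activation and clearance and 0 repressed genes. Array weights and a threshold of 0.1 each called 7 relatives. Without the 4 Cyp11b1-positive arrays, the lone WT array was assumed to vary like the others. Limma then called 26 probes and 0 genes of each list, with 2 of the named genes, 8 induced, 3 chaperone, 4 clearance, 2 repressed and 7 related genes at an unadjusted p under 0.05. Fkbp5 was at 1.45, Sgk1 at 0.53 and Serpina6 at -0.69, all short of the threshold, and Tsc22d3 turned to -0.083. Fewer arrays entered the fits with arrays left out, while the other thresholds and the array weights used all 8. The cause of each shift was not tested.

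No label says that replicate numbers pair the animals. The deviations of same-numbered arrays from their genotype means had correlations of -0.33, 0.06, -0.29 and 0.09, which does not decide whether they were paired. With the replicate block, 1440 probes were called in place of 2474, while 3 of the 6 genes were called, with adjusted p = 0.00482 for Fkbp5, 0.00578 for Sgk1 and 0.0172 for Serpina6 in limma. Signal near background limits Nr3c1, Sult1e1 and Tat.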
